A study of Mus musculus with 6 samples.

Results

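Promoter acetylation in intestinal epithelial cells of mice with a conventional microbiota was set against that in mice colonized with a single bacterium. The comparison used 4 of the 6 H3K9ac chromatin immunoprecipitation libraries of the series. In 2 libraries (conventional replicates 1 and 2) the mice were conventionally housed, and in the other 2 (E. coli replicates 1 and 2) they were E. coli-monoassociated, which means colonized with Escherichia coli alone. All were C57BL/6, the cells came from the distal intestine, and the same H3K9Ac antibody (Millipore 06-942) was used throughout. The labels give no substrain, supplier, age or sex, do not say which E. coli strain was used, and do not say whether replicate libraries came from separate animals. The spread between replicates may therefore be technical. The members compared were all the intervals that the authors called in each library, and every gene or merged region they marked. The 2 germ-free libraries of the series were set beside some results for reference.

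Acetylation of lysine 9 on histone H3 (H3K9ac) is placed by acetyltransferases of the Gcn5/PCAF type and removed by histone deacetylases, and it marks the first nucleosomes downstream of active transcription start sites. In the intestine the microbiota is known to reach this machinery through several routes, among them short-chain fatty acids such as butyrate, which inhibit histone deacetylases, and signalling through Toll-like receptors. Butyrate is a product of the anaerobic fermenters of a complex microbiota. These facts are background and were not measured here.

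What was deposited for each library is a list of called intervals, so a promoter is either called or not. The lists held 3117 and 15352 intervals in the conventional libraries and 1988 and 870 in the E. coli libraries. Background pileup, the mean number of extended reads over a base that the authors' fold enrichment is set against, was 0.413 and 0.381 in the conventional libraries and 0.690 and 0.403 in the E. coli libraries. Since it scales with the reads used, the longest of the 4 lists came from the library with the fewest reads and E. coli replicate 1 had the most. The weakest interval of each list had a fold of 4.25 and 3.62 (conventional) and 4.14 and 4.28 (E. coli), so weaker enrichment is not listed and a promoter without an interval may still carry the mark. Of 15 markers of epithelium, 13 and 14 were called in the conventional and 11 and 8 in the E. coli libraries. None of the 33 lymphocyte and myeloid markers, the 32 markers of stroma, endothelium, muscle and nerve, the 12 Paneth cell or the 10 tuft cell markers was called in any of the 4. Of 15 enteroendocrine markers 1 was called, in conventional replicate 2 alone. Of 13 goblet cell markers, 2 and 3 were called in the conventional and 0 and 0 in the E. coli libraries, and the part of goblet cells in the gene calls was not tested.

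The conventional lists were longer and lay more at promoters than the E. coli lists. The shorter conventional list was 1.57 times as long as the longer E. coli list. The replicates themselves differed 4.93-fold (conventional) and 2.29-fold (E. coli), which is close in size to the 5.26-fold difference between the groups' geometric means (log2 difference 2.40). An exact two-sided permutation of the libraries gave p = 0.333, the smallest that 2 libraries against 2 allow, so no single comparison here can pass 0.05. The same p = 0.333 from the exact permutation test belongs to each of the other differences in which the groups did not overlap.

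In the conventional lists 73.0% (71.5 to 74.6, Wilson 95% interval) and 64.9% (64.1 to 65.6) of nuclear intervals overlapped a promoter, taken as 1 kb on either side of a start site. In the E. coli lists the shares were 50.7% (48.5 to 52.9) and 53.2% (49.9 to 56.5). These intervals cover counting error only. The group means, 69.0% ± 5.79 and 51.9% ± 1.82 (SD, n = 2 each), differed by 17.0 percentage points, and the groups did not overlap. Intergenic intervals went the other way, at 6.68% and 8.03% of the conventional and 18.8% and 15.4% of the E. coli lists. Among intervals of 8-fold enrichment or more, 171 of 329 and 1490 of 1779 were at promoters in the conventional lists, against 62 of 259 and 25 of 161 in the E. coli lists. The strongest E. coli intervals were thus mostly away from promoters. Since a longer list reaches weaker intervals, the 870 strongest intervals of each list were also compared. This equalized length but not strength. The lowest fold was 6.37 and 10.1 in the conventional and 5.92 and 4.28 in the E. coli lists. For E. coli replicate 2 the 870 intervals are its whole list. There the promoter share was 66.5% and 82.1% with the conventional microbiota and 48.4% and 53.2% with E. coli, a difference of 23.5 points. Median interval length was 227 and 264 bp in the conventional and 193 and 222 bp in the E. coli lists, again without overlap of the groups and with only 5 bp between the nearest libraries.

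**Figure D1:**
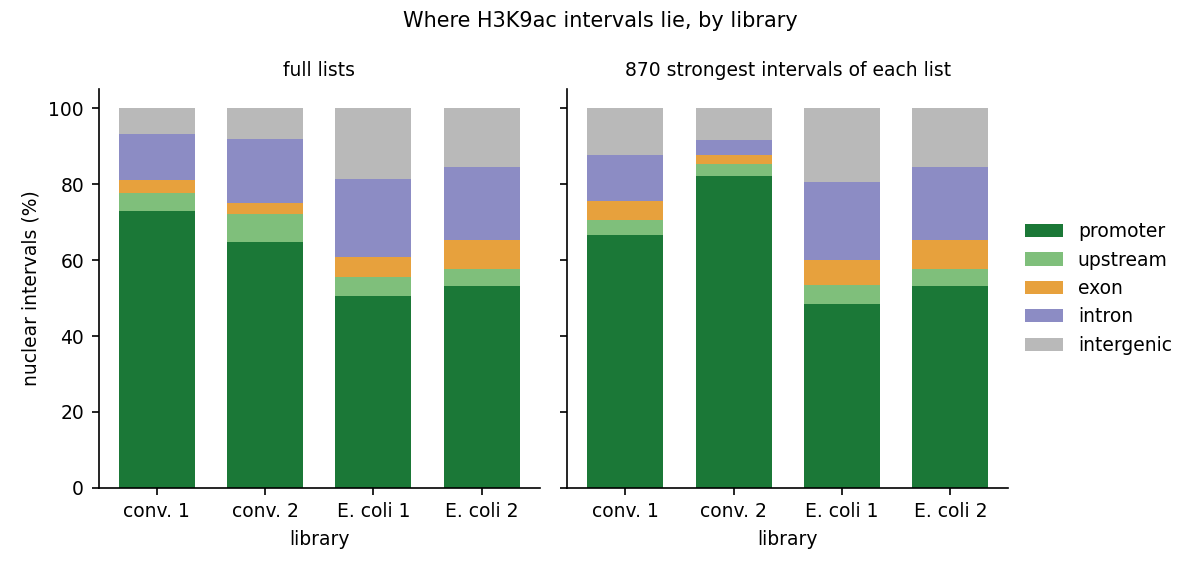
Share of nuclear H3K9ac intervals (%, vertical axis) in 5 region classes for each of the 4 libraries, over full lists (left) and over the 870 strongest intervals of each list (right). The promoter share of both conventional libraries is above that of both E. coli libraries in each panel, and the intergenic share is below.

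At the level of genes the difference ran in 1 direction. Promoter intervals marked 1989 and 7193 protein-coding genes in the conventional and 921 and 409 in the E. coli libraries. Both conventional libraries marked 1968 genes. Of these, 1218 (61.9%, Wilson interval 59.7 to 64.0) had no promoter interval in either E. coli library, which is 5.56% of all 21900 protein-coding genes in the RefSeq table. A further 519 were called in 1 E. coli library and 231 in both. In the opposite direction, 0 of the 248 genes marked in both E. coli libraries lacked a conventional call (0%; a count of 0 allows a share of up to 1.21% by the rule of 3 counts, and 1.53% by the Wilson interval). These limits and the interval for the 1218 genes cover counting error only and leave out the spread between libraries. Without conventional replicate 2 the count of 0 became 17. Nearly every gene called with E. coli was in the longer conventional list: 908 of the 921 genes of E. coli replicate 1 (98.6%) and 405 of the 409 of replicate 2 (99.0%) were in the list of conventional replicate 2. In the shorter list of conventional replicate 1 the counts were 636 of 921 and 345 of 409. The 2 E. coli lists shared 248 genes, 60.6% of the shorter one. Of the 1218 genes, 283 had only promoter intervals that they share with a neighbouring gene. For 997 of the 1218 the strongest promoter intervals of the 2 conventional libraries overlapped each other. For the rest they lay at different places within the window, so a call in both libraries does not always mean the same site.

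**Figure D2:**
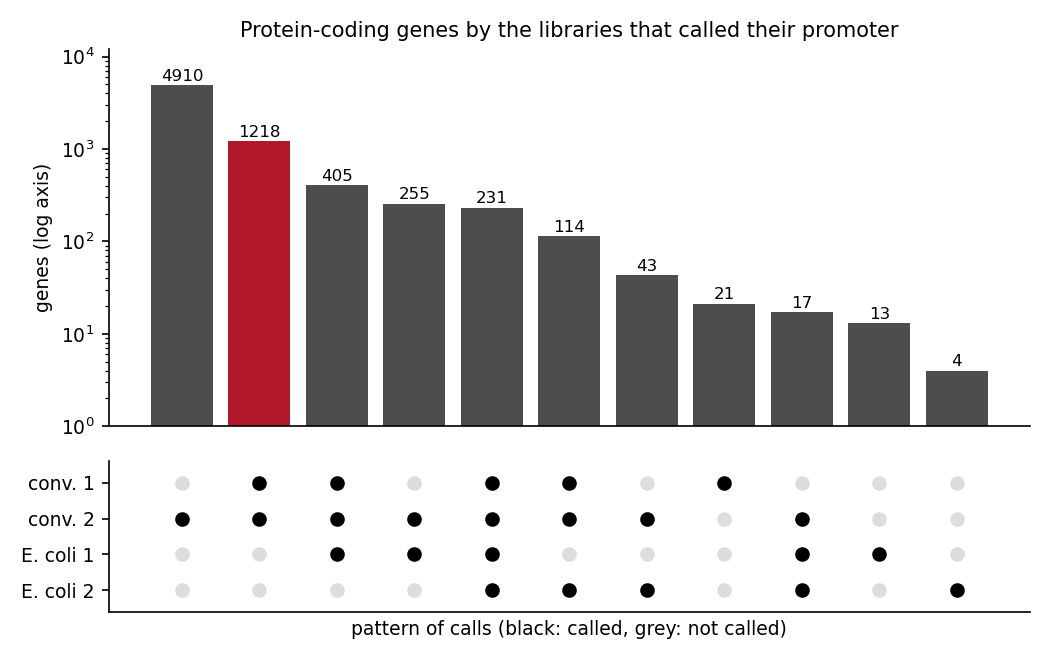
Number of protein-coding genes (vertical log axis) for each combination of the 4 libraries in which the promoter was called, with black dots marking the calling libraries. The red bar is the 1218 genes called in both conventional and neither E. coli library, and no bar stands for the reverse pattern, which held 0 genes.

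Where an interval was weak in the conventional lists, the E. coli libraries more often had none. The 1968 genes were ordered by the mean percentile of their promoter interval in the 2 conventional lists and divided into 5 equal bins. From the strongest to the weakest bin, 32.0%, 49.7%, 66.0%, 76.8% and 85.0% had no E. coli interval. The 1218 genes had a median fold of 5.66 and 7.24 in conventional replicates 1 and 2, against 7.08 and 12.3 for the 231 genes called in all 4. Their intervals were also shorter, with medians of 214 and 604 bp against 457 and 1268 bp. In conventional replicate 1, 177 of the 1218 sat at the lowest fold the list holds. Membership also depended on the window of 1 kb, since the count of 1218 was 1015 with a window of 500 bp and 1238 with 2.5 kb. At the edge, Pdgfa, at 1000 and 545 bp from its start site in the 2 conventional lists, was just inside. Trafd1, at 1005 and 933 bp, was just outside.

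The 15 strongest of the 1218 genes are described by what they encode. Tbx3, a T-box transcriptional repressor, had intervals of 14.2-fold and 18.8-fold that spanned 4339 and 4930 bp, ranked 75 and 69 in their lists, and began 939 and 712 bp from its start site. Selenop, which encodes the secreted selenium carrier selenoprotein P and is listed by its older name Sepp1, stood at 11.3-fold and 18.8-fold. All 15 genes were also called in germ-free replicate 2, Tbx3 at 14.6-fold and Selenop at 10.8-fold, and in neither E. coli library. In germ-free replicate 1 all but Tbx3, Selenop, Tut4, Map3k1 and Ndfip2 were called as well. Apob, the structural protein of chylomicrons, had 9.91-fold and 14.5-fold in the conventional libraries. Ppard, a nuclear receptor that responds to fatty acids, had 9.91-fold and 11.6-fold. Rad21, a cohesin subunit, had 9.91-fold and 15.2-fold. The other 10 were Hbp1, Tut4, Sem1, Map3k1, Npepps, Ccng2, Snx6, Erbb2, Ndfip2 and Clca4a, with 8.49-fold to 9.91-fold in replicate 1 and 10.9-fold to 16.7-fold in replicate 2. Erbb2 is a receptor tyrosine kinase of the epidermal growth factor family, and Map3k1 a kinase upstream of JNK.

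Of 5 genes chosen for display, 4 were called in both conventional and neither E. coli library. Apob, Ppard and Selenop among these were also called in a germ-free library. The upstream sequences of all 5 are shown because their promoters differ widely in base composition. Each is the 250 bases before a start site listed by RefSeq on GRCm38.p6, 5′ to 3′ on the gene's strand. Selenop has several listed start sites, and the one to which the interval of conventional replicate 2 was tied is shown; the interval of replicate 1 was tied to one further downstream. The first 3 belong to the 15 genes above, Espn (the actin bundler of microvilli, called in the conventional libraries alone) was chosen after its values were seen, and Ets2 is described further on as a gene that ranked higher with E. coli. Capitals mark matches on either strand to a GC box, spelled GGGCGG, to the letters CCAAT, to a TATA box, spelled TATAAA, or to a CDX core, spelled TTTATG.
Apob, chr12:7977427-7977676, plus strand: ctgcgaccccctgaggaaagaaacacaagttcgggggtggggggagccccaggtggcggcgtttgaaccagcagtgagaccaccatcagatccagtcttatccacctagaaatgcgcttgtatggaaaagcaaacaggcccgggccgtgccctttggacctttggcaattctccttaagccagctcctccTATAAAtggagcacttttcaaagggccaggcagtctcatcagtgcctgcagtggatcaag
Ppard, chr17:28232504-28232753, plus strand: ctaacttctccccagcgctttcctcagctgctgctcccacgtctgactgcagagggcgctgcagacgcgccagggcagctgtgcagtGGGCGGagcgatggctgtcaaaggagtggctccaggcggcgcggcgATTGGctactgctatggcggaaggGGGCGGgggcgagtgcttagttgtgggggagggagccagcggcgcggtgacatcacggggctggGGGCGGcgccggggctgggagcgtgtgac
Selenop, chr15:3270517-3270766, plus strand: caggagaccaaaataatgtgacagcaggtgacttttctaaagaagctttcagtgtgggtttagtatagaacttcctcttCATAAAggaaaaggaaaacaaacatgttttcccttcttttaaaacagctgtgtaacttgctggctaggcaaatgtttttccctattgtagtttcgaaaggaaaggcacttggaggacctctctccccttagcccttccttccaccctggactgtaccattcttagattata
Espn, chr4:152128926-152129175, minus strand: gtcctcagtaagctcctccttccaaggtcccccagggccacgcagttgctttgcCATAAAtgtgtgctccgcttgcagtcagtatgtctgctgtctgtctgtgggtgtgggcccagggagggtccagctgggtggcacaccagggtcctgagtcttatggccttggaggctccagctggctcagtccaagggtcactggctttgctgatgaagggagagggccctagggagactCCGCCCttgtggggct
Ets2, chr16:95702157-95702406, plus strand: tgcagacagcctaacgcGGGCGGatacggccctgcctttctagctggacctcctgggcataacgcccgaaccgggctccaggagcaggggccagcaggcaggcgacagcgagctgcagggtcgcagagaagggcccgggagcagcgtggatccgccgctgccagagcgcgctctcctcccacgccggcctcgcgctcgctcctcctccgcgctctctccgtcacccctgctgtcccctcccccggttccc
Ppard has 22 CpG dinucleotides and 3 GC boxes in these bases and Ets2 has 25 and 1, while Apob has 7, Espn 3 and Selenop 1. The median over the 32851 promoters in the table is 6. Apob has a TATA box, held by 12.4% of those promoters, and Espn and Selenop each have a CDX core, held by 10.8%. The GC box was found in 32.7% and the CCAAT box in 33.8% of promoters. An ETS core (CCGGAAG, 6.91% of promoters) and a GATA core (AGATAA, 9.99%) were also searched and were not found in these 5 windows. A comparison of composition between whole gene sets was void, because the table holds a promoter for 81.2% of the 1218 genes but for 78.4% of the 231 genes called in all 4 libraries and 79.9% of all protein-coding genes, so not every set reached the coverage required of each.

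The genes called in all 4 libraries included those that define the tissue. Cdx2, the homeobox factor of intestinal identity, had 14.2-fold and 22.4-fold with the conventional microbiota and 14.8-fold and 9.98-fold with E. coli. Vil1, which encodes the microvillus protein villin, had 10.6-fold and 15.9-fold against 10.1-fold and 9.98-fold. Actb had 12.7-fold and 13.04-fold against 8.29-fold and 11.4-fold. For Cdx2 the groups overlapped, and for Vil1 and Actb both conventional values were above both E. coli values. Fold is the authors' value and depends on each library's own background, so these numbers describe each list and no fold was tested between lists. The other genes with the highest mean percentile were Clec2h, Sfi1, Ino80d, Efcab2, Epc1, Zc3h4 and Kmt2e, the last a reader of histone H3 methylation. Clec2h has close relatives nearby and Sfi1 lies in a repeated locus, so both are uncertain.

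**Figure D3:**
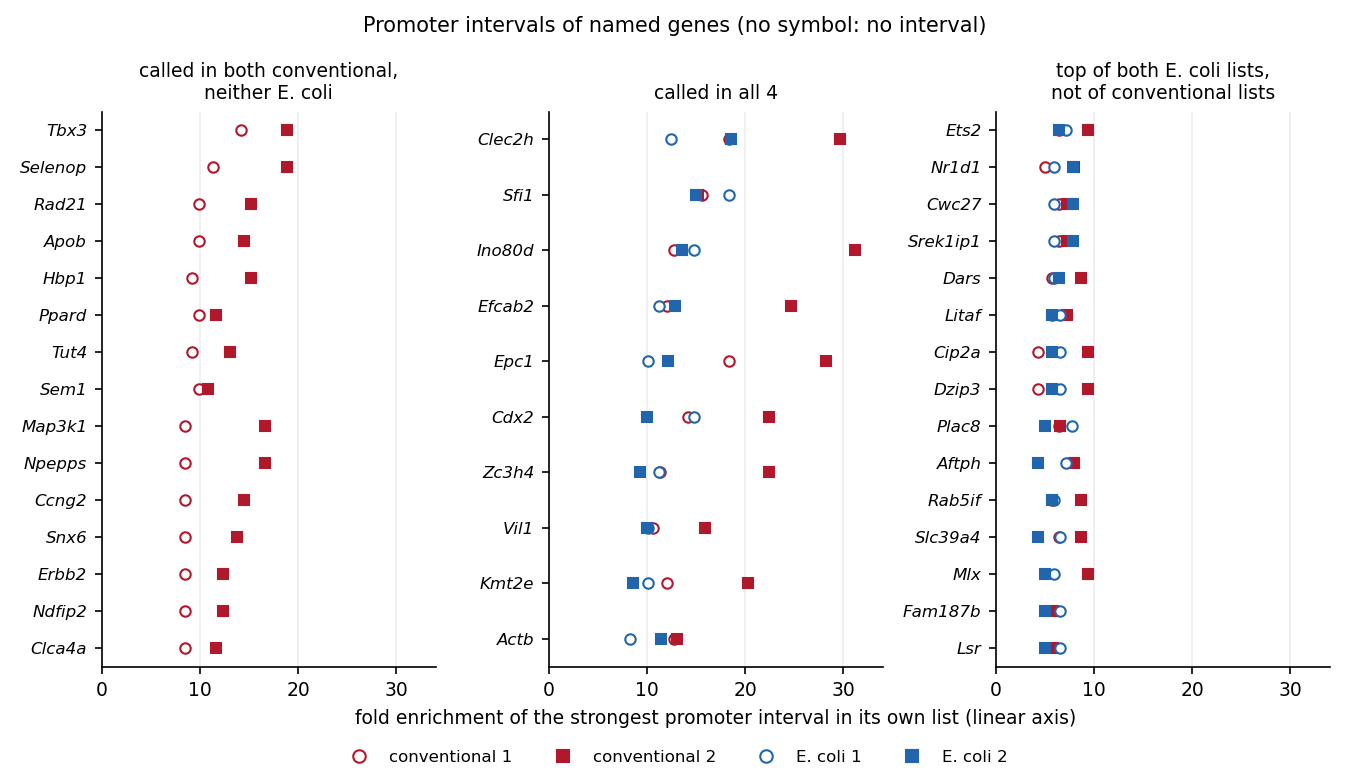
Fold enrichment (horizontal linear axis) of the strongest promoter interval in each library's own list for the 15 strongest genes called in both conventional and neither E. coli library (left), 10 genes called in all 4 (middle), and 15 genes ranked high in both E. coli lists but not in the conventional lists (right). Conventional libraries are red and E. coli libraries blue, with open circles for replicate 1 and filled squares for replicate 2, and the left panel has no blue symbol because no E. coli interval was called.

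Genes were then read by function, with 16 lists. The count to set each list against is the 61.9% of all genes called in both conventional libraries that had no E. coli interval, at a median conventional fold of 5.66 and 8.69 over all 1968. No list was tested, and a list's count also follows how strong its intervals are.

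Of the 30 genes of antigen presentation, 12 and 26 were called in the conventional and 3 and 1 in the E. coli libraries. Of the 12 called in both conventional libraries, 9 had no E. coli interval (beside 61.9% over all genes), 3 had 1 and none had both. Tap1 and Psmb9 are counted separately among the 9 although they share their interval within each library. H2-DMa is among the 9 only through an interval named for Brd2 as well. The median fold of the 12 was 5.31 and 8.69, close to that of all genes called in both conventional libraries. Tapbpl, a relative of the peptide-loading factor tapasin, had 9.20-fold and 10.1-fold, and Canx, the chaperone calnexin, had 6.37-fold and 10.1-fold. Psmb10, an immunoproteasome subunit, had 5.66-fold and 8.69-fold. H2-DMa, which loads peptides on class II molecules, had the same values, but shares its interval with Brd2. Its entry in conventional replicate 1 gives 1 start site for both genes, at chr17:34122607 on the minus strand. The call may thus belong to Brd2, which was also called in both E. coli libraries. H2-D1, a class I heavy chain whose interval is named for H2-L as well, and B2m, its light chain, were called in both conventional libraries and in E. coli replicate 1. H2-Ab1, a class II beta chain, and Tap1 with Psmb9 were called in the 2 conventional libraries alone out of all 6. Tap1 and Psmb9 encode a peptide transporter and an immunoproteasome subunit and share their promoter interval within each library. Their strongest intervals did not overlap between the libraries, at chr17:34187091-34187251 in conventional replicate 1 and chr17:34186582-34186728 in replicate 2. H2-Ab1 had 4.95-fold and 7.24-fold, and Tap1 with Psmb9 had 4.95-fold and 3.62-fold, which is at the floor of the second list. These last 3 were chosen after their values were seen.

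Of 38 matched genes of interferon signalling, 10 and 27 were called in the conventional and 7 and 4 in the E. coli libraries. Of 10 genes called in both conventional libraries, 3 had no E. coli interval: Irgm1, an interferon-induced GTPase, Ifnlr1, the type III interferon receptor, and Mavs, the mitochondrial adaptor of RNA sensing. The strongest Mavs intervals of the 2 conventional libraries did not overlap each other. The 2 chains of the type II interferon receptor, Ifngr1 and Ifngr2, and the factor Irf2 were called in all 4. Ifngr1 had 7.08-fold and 8.69-fold with the conventional microbiota and 5.33-fold and 5.70-fold with E. coli. Jak2, Stat3 and Parp14 were called in E. coli replicate 1 but not replicate 2.

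Of the 6 mucosal defence genes called in both conventional libraries, 4 had no E. coli interval. Il22ra1, the epithelial receptor chain for interleukin 22, had 8.49-fold and 7.97-fold, Nlrp6, an inflammasome sensor of the gut epithelium, 5.66-fold and 6.52-fold, and the chemokine genes Ccl25 and Ccl28 4.95-fold and 10.9-fold, and 4.25-fold and 5.79-fold. Ccl25 shares its interval with Elavl1. Pigr, the receptor that carries IgA into the lumen, was called in all 4, at 7.08-fold and 10.1-fold against 6.51-fold and 5.70-fold. Of the 33 matched genes of this list 23 had no promoter interval in any of the 4 libraries.

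In NF-kB and Toll signalling, 7 of the 13 genes called in both conventional libraries had no E. coli interval. They included Tnfrsf1a, the main receptor for TNF (7.78-fold and 10.1-fold), the inhibitors Nfkbia (7.78-fold and 8.69-fold) and Tollip (7.08-fold and 8.69-fold), and Casp8. The subunit gene Nfkb1 and the adaptor Tab2 were called in all 4, and Traf6, Irak2, Birc2 and Ticam1 in both conventional libraries and E. coli replicate 1.

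Of the 41 genes of histone acetylation itself, 5 and 29 were called in the conventional and 5 and 2 in the E. coli libraries. Those called in both conventional libraries numbered 5 of 41, beside 1968 of 21900 over all protein-coding genes, and 2 of the 5 had no E. coli interval. Ep300, an acetyltransferase, had 9.91-fold and 16.7-fold with the conventional microbiota and 7.69-fold and 7.84-fold with E. coli, and Brd2, an acetyl-lysine reader, was also called in all 4. Crebbp, the relative of Ep300, and Mta1, a subunit of a deacetylase complex, had no E. coli interval. A further 22 genes were called in conventional replicate 2 alone and 12 in none of the 4.

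Inositol phosphate metabolism was read because inositol phosphates are known cofactors of class I histone deacetylase complexes. Of its 32 genes, 6 and 19 were called in the conventional and 2 and 0 in the E. coli libraries. Of the 6 called in both conventional libraries 4 had no E. coli interval: Ip6k1, an inositol hexakisphosphate kinase (7.08-fold and 13.04-fold), Cdipt, which makes phosphatidylinositol (7.08-fold and 11.6-fold), the phosphatase gene Inpp5a (6.37-fold and 10.1-fold) and Bpnt2 (4.95-fold and 5.07-fold). Itpk1, an inositol phosphate kinase, and the phospholipase gene Plcb3 were called in E. coli replicate 1, both at 5.33-fold.

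Of 46 lipid and bile acid genes, 19 and 34 were called in the conventional and 7 and 6 in the E. coli libraries. Of the 18 called in both conventional libraries 10 (55.6%) had no E. coli interval, close to the 61.9% over all genes. Besides Apob and Ppard these included Abcg5, which shares its interval with its partner Abcg8 in a sterol exporter (6.37-fold and 11.6-fold), and Slc51b (6.37-fold and 10.9-fold). An interval named for several genes marks each of them, so that of Abcg5 can count for Abcg8 as well. Slc51b and Slc51a encode the 2 chains of the basolateral bile acid exporter of the ileum, and Slc51a was called in all 4 libraries, at 5.66-fold and 9.41-fold against 5.92-fold and 4.99-fold. Dgat1, a triglyceride synthase, was the other gene called in all 4. Rxra, the partner of many nuclear receptors, had 9.91-fold and 14.5-fold and was called in E. coli replicate 2 at 7.84-fold.

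In the epithelial apparatus, 22 brush border and transport genes were called in both conventional libraries. Of these, 10 (45.5%, beside 61.9% over all genes) had no E. coli interval and 8 were called in both E. coli libraries. Espn had 8.49-fold and 11.6-fold and no interval in any E. coli or germ-free library. Slc7a9, an amino acid transporter chain, had 7.08-fold and 15.2-fold, the protocadherin gene Cdhr5 6.37-fold and 10.1-fold, and Guca2a, which encodes guanylin, 6.37-fold and 5.79-fold. Vil1, Anpep, Slc6a19 and Myo7b were called in all 4. Of 21 genes of junctions and adhesion, 7 had no E. coli interval, among them Tjp3, a scaffold of tight junctions (7.78-fold and 7.97-fold), Pard6b, Dsc2 and Marveld2, while Epcam, Cldn7 and Cldn23 were among the 6 called in all 4. In the stem cell and Wnt list 5 of 27 genes were called in both conventional libraries. Apc, Lrp5, Lgr4 and Lrig1 had no E. coli interval, and Lrp6 had 1, in replicate 2.

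Intestinal transcription factors had the lowest share without an E. coli interval of the 16 lists, 2 of 17. They also had the strongest intervals, with a median fold of 9.20 and 13.04 in the conventional libraries, and in the strongest of the 5 bins of all genes 32.0% had no E. coli interval. Besides Cdx2, the factors Gata5 (12.0-fold and 13.8-fold against 8.88-fold and 7.13-fold), Klf5 (9.20-fold and 15.2-fold against 7.69-fold and 6.41-fold) and Klf4 were called in all 4. The exceptions were Tbx3 and Esrra, an orphan nuclear receptor of energy metabolism (7.08-fold and 11.6-fold). Tbx3 stands apart in that its conventional intervals were as strong as those of Cdx2 in replicate 1, at 14.2-fold in each case.

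Lists of general cell functions served as a reference and were not spared. Of ribosome and translation genes called in both conventional libraries 9 of 14 had no E. coli interval, of mitochondrial respiration genes 11 of 18, and of splicing and RNA processing genes 12 of 20. For housekeeping genes the count was 3 of 10, with Actb, Actg1 and Hspa8 among those called in all 4. In the circadian list Clock was the 1 gene of 4 without an E. coli interval, and Nr1d1 was called in all 4. Mitochondrial respiration genes also showed how far the E. coli replicates differed, with 14 of 44 called in replicate 1 and 2 in replicate 2.

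**Figure D4:**
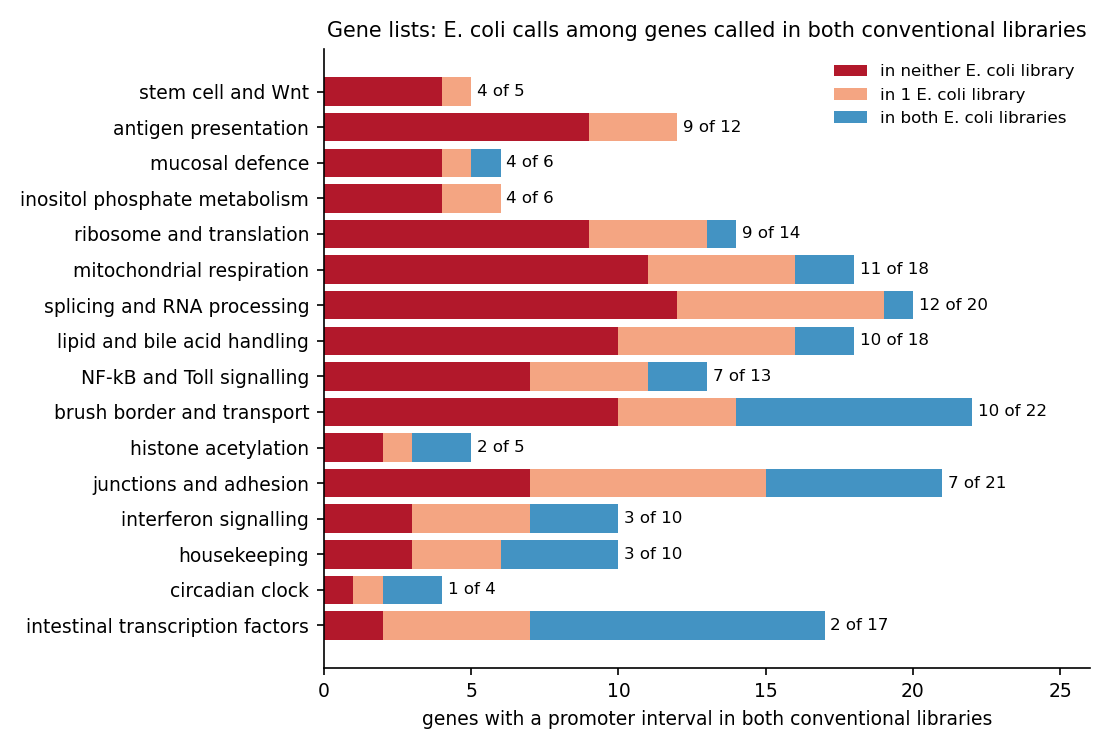
Genes called in both conventional libraries (horizontal axis, number of genes) in each of 16 gene lists, divided by whether they were called in neither, 1 or both E. coli libraries. Lists are ordered by the share in neither, from 4 of 5 for stem cell and Wnt genes to 2 of 17 for intestinal transcription factors.

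Lists of equal length, though not of equal lowest fold, gave calls in both directions. In the 870 strongest intervals of each library, 277 genes were marked in both conventional lists, and 101 of them (36.5%) in neither E. coli list. In the other direction 156 genes were marked in both E. coli lists and 20 of them (12.8%) in neither conventional list. Of the 101 genes, 66 had no promoter interval anywhere in the full E. coli lists and 35 had a weaker one. The 10 with the best mean rank were Tbx3, Selenop, Zfp236, Rad21, Arfgap3, Apob, Hbp1, Npepps, Map3k1 and Parp14.

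All 20 genes that ranked higher with E. coli were also called in the full conventional lists, 14 in both and 6 in 1. Ets2, a transcription factor downstream of Ras signalling, stood at rank 367 and 334 in the E. coli lists and at 984 and 1106 in the conventional lists. Its fold was 7.10 and 6.41 against 6.37 and 9.41, so its rank moved while its fold overlapped. Nr1d1, the clock repressor REV-ERB alpha, stood at rank 694 and 175 with E. coli and 2144 and 1897 with the conventional microbiota, at 5.92-fold and 7.84-fold against 4.95-fold and 7.97-fold. Plac8 was the gene with the lowest conventional rank of those named, 4335 in replicate 2, against 310 and 724 with E. coli. The other 7 of the first 10 were Cwc27 with Srek1ip1 and Cip2a with Dzip3, each pair sharing its interval within each list, and Dars, Litaf and Aftph. A rank in a list of 15352 intervals is set by many more competitors than one in a list of 870, so these ranks show no change by themselves.

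Merging overlapping intervals of the 4 lists gave 16055 regions, 1432 of which (8.92%) were called in both conventional and neither E. coli library and 21 (0.131%) in the reverse pattern. Of the 1432, 1196 were at promoters, 59 upstream, 30 in exons, 102 in introns, 43 intergenic and 2 mitochondrial. Among regions called in both conventional libraries, the share without E. coli was 62.2% at promoters, 62.8% upstream, 48.4% in exons, 60.4% in introns and 28.7% in intergenic sequence. Intergenic regions were thus the class most often shared. The strongest of these lie near Cdon on chromosome 9, at 3 places near B230118H07Rik on chromosome 2 and near Gm5458 on chromosome 14, at 87.0-fold to 253-fold in the 4 libraries and in the germ-free libraries as well. Folds of that size in every library are a known mark of collapsed repeats in the reference, and these regions are uncertain.

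Away from promoters, regions called in both conventional and neither E. coli library lay in several named genes, and many were also called in a germ-free library. An exon of Klf5 (chr14:99303060-99304042) had 9.20-fold and 7.24-fold, and an intron of Elovl6, a fatty acid elongase (chr3:129533551-129534401), had 7.78-fold and 11.6-fold. An intron of Erbb3, the partner of Erbb2 (chr10:128588045-128588456), had 7.08-fold and 8.69-fold, and an intron of the histone H3 lysine 27 demethylase gene Kdm6b (chr11:69410321-69411213) the same values. In the germ-free libraries the Klf5 exon had 6.93-fold and 5.70-fold and the Kdm6b intron 7.50-fold and 8.87-fold, while the Erbb3 intron (15.8-fold) and the Elovl6 intron (5.07-fold) were called in replicate 2 alone. Introns of Zbtb7a and Pls1, which encodes a microvillus actin bundler, exons of Tmc5 and Apobec1, the editor of Apob messenger RNA, and an upstream region of Notch4 followed. The Klf5 promoter itself was called in all 4 libraries, and both the Erbb2 promoter and the Erbb3 intron were called in the conventional libraries alone of the 4.

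The 21 regions of the reverse pattern lay almost wholly away from promoters. Of these, 20 fell in 5 stretches of 2 or more regions, and 1 was at an annotated promoter, that of the pseudogene Speer7-ps1. The stretch around Speer4d and Gm17019 (chr5:14954061-15691139), a cluster of related genes, held 41 and 14 intervals in the E. coli libraries and 0 and 0 in the conventional libraries. A pair of regions beyond Lmbrd1 (chr1:24612636-24613246) reached 32.6-fold and 17.1-fold with E. coli and was not called in either conventional library. Further stretches lay in the Sp140 and A530032D15Rik locus (chr1:85088132-85606918), in Camk2b, in Lyst and at Gm7120. The conventional libraries did have intervals in the Sp140 locus (23 and 31) and near Camk2b (2 and 3).

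In most of these stretches the germ-free libraries had intervals as well. The Speer stretch held 36 and 12 germ-free intervals, and the regions beyond Lmbrd1 reached 31.7-fold and 34.8-fold. Near Camk2b they had 5 and 2 intervals and in Lyst 0 and 1, so at each of these 1 germ-free library had no more intervals than the conventional libraries. Of the 21 regions, 10 were called in both germ-free libraries, 10 in 1 and 1 in neither. Over all 6 lists, merged to 23987 regions, 8 were called in both E. coli and both germ-free libraries and in neither conventional library, all of them in the stretches just named. The mitochondrial genome gave the mirror image: regions at positions 9329 to 9564 (16.3-fold and 13.8-fold) and 9719 to 9937 (11.3-fold and 10.9-fold) were called in the 2 conventional libraries and in none of the other 4. Multicopy gene clusters and mitochondrial sequence, of which the nuclear genome holds copies, are known to differ between colonies and substrains of C57BL/6, and short reads cannot always be placed among copies. The labels give C57BL/6 for every library with no substrain or colony, so the microbiota and a difference in mouse colony cannot be told apart in this comparison, for these regions or for any other.

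**Figure D5:**
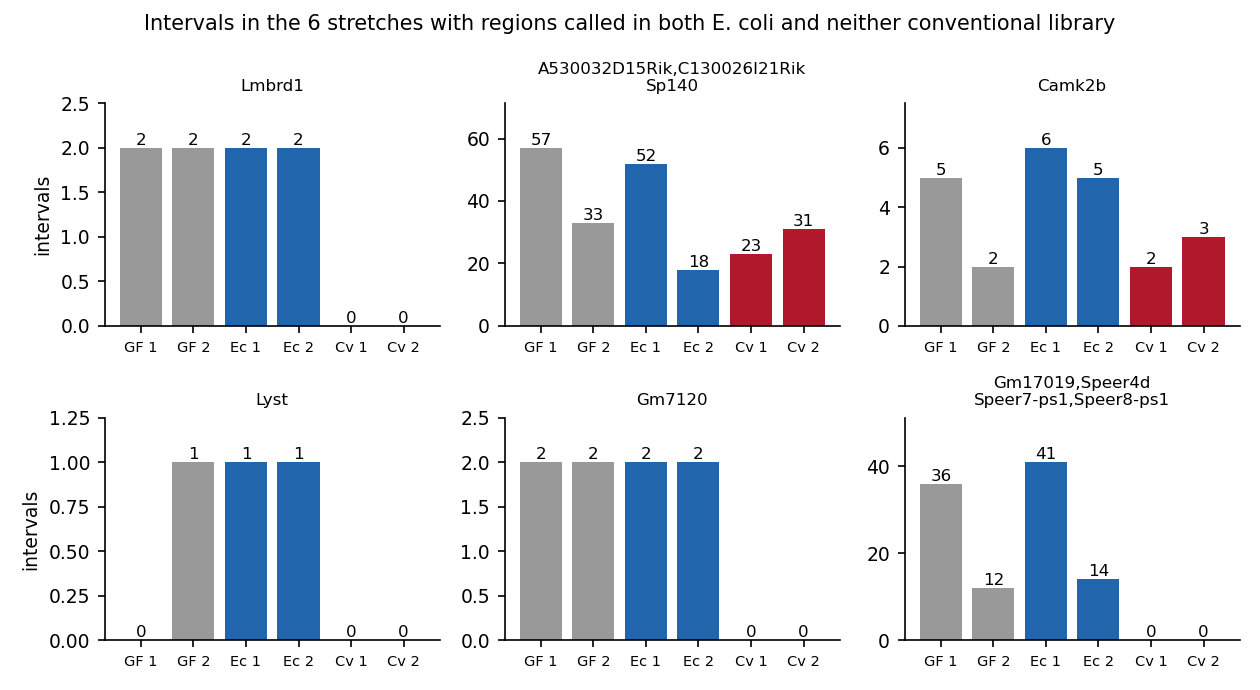
Number of intervals (vertical axis, own scale per panel) in each of the 6 libraries for the 6 stretches that hold the 21 regions called in both E. coli and neither conventional library (grey GF germ-free, blue Ec E. coli, red Cv conventional). In the Lmbrd1, Lyst, Gm7120 and Speer stretches the conventional libraries have 0 intervals while both E. coli libraries have at least 1.

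The 1218 genes called with the conventional microbiota and not with E. coli were for the most part also called without any microbes. Of them 585 (48.0%) were called in both germ-free libraries, 575 (47.2%) in 1, nearly always the longer list of replicate 2 (556), and 58 (4.76%) in none. The 58 genes called only in the 2 conventional libraries of all 6 were weak. Espn was the strongest, followed by Ttyh3 (7.78-fold and 6.52-fold) and Cebpd, a C/EBP factor induced in inflammation (6.37-fold and 7.97-fold). They also included the digestive enzymes of the brush border Sis, sucrase-isomaltase (4.25-fold and 5.79-fold), and Mep1b, a meprin chain (5.66-fold and 4.35-fold), the goblet cell marker Fcgbp (4.95-fold and 4.35-fold), the stem cell regulator Lrig1 (4.25-fold and 6.52-fold) and the antigen presentation genes described above. These genes were named after their values were seen. Between the 2 conventional libraries the strongest intervals of Mep1b, of Fcgbp and of Tap1 with Psmb9 did not overlap. The comparison shares its conventional libraries with that against germ-free mice, so the 2 sets of calls are not independent.

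Within the regions called in all 4 libraries, pileup at promoters was lower with E. coli relative to pileup away from promoters. The median pileup at the promoters of the 231 genes was 9 and 16 extended reads in the conventional and 9 and 7 in the E. coli libraries. At the 159 shared nuclear regions away from promoters it was 13 and 16 against 24 and 14. Of these regions 84 are intergenic, among them the uncertain ones near Cdon, B230118H07Rik and Gm5458. The lowest pileup listed was 5 and 4 in the conventional and 6 and 5 in the E. coli lists, so promoter medians with E. coli lie near the floor. The ratio of the medians within each library was 0.692 and 1 with the conventional microbiota and 0.375 and 0.5 with E. coli, without overlap (exact two-sided permutation p = 0.333, the smallest possible). This ratio uses no background value. It still depends on the calls, since only genes and regions called in all 4 lists entered and the shortest list limited which these were. The ratio was also chosen after the data were seen. The position of the mark did not separate the groups. Interval summits at promoters lay downstream of the start site in 86.6% and 77.7% of conventional and 86.4% and 82.6% of E. coli intervals, at a median of 424 and 338 bp and 412 and 436 bp. Overall enrichment at promoters, which can differ between immunoprecipitations of the same chromatin, moved with the group in list length, in promoter share and in this ratio, and its part in the gene calls was not tested.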

How the data were processed

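The series holds 6 H3K9ac libraries, read as single-end 50 bp on a HiSeq 2000 at a stated depth of 20 M reads per the labels' protocols. The submitters' processing notes name mm10, the aligner Bowtie 1.2.0 and the peak caller MACS2 2.1.1.20160309. Whether an input was used, and with which settings peaks were called, is not given in the sources used here. Peaks were called per library. The deposited lists give for each interval the pileup at its summit (signal: coverage by extended reads), the −log10 of its p-value and q-value, its fold enrichment as a ratio to background, a region class and the nearest gene. In every list with a pileup the fold was the pileup plus 1 over a constant background plus 1, so order by fold and by −log10 q is the same within a list.

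Several summits of 1 interval were counted as 1. A gene was marked where an interval that the authors had assigned to it lay within 1 kb of the start site listed for that interval. An interval assigned to several genes lists 1 start site and marked each of them. Of 10621 gene names 10567 matched the RefSeq table (GRCm38.p6), and only protein-coding genes were kept. Mitochondrial intervals were left out of shares and gene counts. Regions were intervals merged at 1 bp of overlap. Groups came from the labels, and nothing in the labels says that equal replicate numbers pair libraries. A gene or region counted for a group when called in both of its libraries and neither of the other group. Shares have 95% Wilson intervals, and per-library values were compared by exact two-sided permutation. No test was run across genes, which are not replicates. The counting code was tested on simulated lists with planted patterns. The software was pandas 2.3.3 and SciPy 1.17.1 under Python 3.11.15, with NumPy 2.4.6 and figures by matplotlib 3.10.9.

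The members and gene lists were chosen with earlier results of these data known. Genes were named by rank: the 15 of the conventional pattern with the highest mean percentile, 10 per direction in the equal-length lists, 10 called in all 4, 5 regions per class, and up to 4 genes per list and pattern. Exceptions are stated. Alternatives left out each library, raised the thresholds, and changed the window, the merging and the list length. Alignments and coverage tracks were not used here.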

Additional observations from a re-analysis of the deposited data

How the results depend on the processing

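Under 38 alternatives the 4 differences between group means (log2 peak number, promoter share of full and of equal-length lists, median length) kept their direction, and none can pass 0.05 by an exact permutation. Leaving out 1 library gave 1.24 to 3.55 for log2 peak number, 12.9 to 21.1 and 15.7 to 31.3 points for the promoter shares, and 19.5 to 56.5 bp for length. At a −log10 q of 5 or more the promoter share difference was 39.9 points and the length difference 149 bp, with the groups no longer apart in length (exact permutation p = 0.667), and at a fold of 5 or more the length difference was 87.5 bp. With the replicate block the differences are by construction 2.40, 17.0 points, 38 bp and 23.5 points (exact permutation p = 0.5, the smallest that 2 pairs allow). Over the 16055 regions the deviations of same-numbered libraries correlated at 0.269. Regions entered only when called in some library, and 12396 of them were called in conventional replicate 2 alone. With lists so unequal in length this value cannot show a pairing, and the labels state none. Counts depended on single libraries. The 1218 genes became 1239 to 6128 when 1 library was left out, the highest without conventional replicate 1, and 629 at a −log10 q of 5 or more. The 0 genes of the reverse pattern became 0 to 17 (17 without conventional replicate 2, 13 without E. coli replicate 2, 4 without E. coli replicate 1). The 1432 regions became 1561 to 13903, the highest without conventional replicate 1, with 664 at a −log10 q of 5 and 944 at a fold of 5 or more. The 21 reverse regions became 28 to 542 (66 without conventional replicate 2, 76 without E. coli replicate 1, 542 without E. coli replicate 2) and 11 at a −log10 q of 5. The 101 genes of the equal-length lists became 134 to 408 (408 without conventional replicate 1, 303 without conventional replicate 2, 399 without E. coli replicate 2) and the 20 of the reverse direction 33 to 227 without any 1 of the 4 libraries. Without E. coli replicate 2 the equal-length lists held 1988 intervals each in place of 870. The 399, the 227 and the promoter share difference of that setting thus come from longer lists. In lists of 500 intervals the counts of genes were 50 and 4. Ordering by fold changed nothing, since it is the order by q. With 1 library left in a group a pattern rests on that library. Other windows, region classes and merging rules moved no count by more than 1.5 times. What limits depth is the lowest fold of each list, under which nothing is listed.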
